A study of Homo sapiens with 12 samples.

Results

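Polycomb repressive complex 2 (PRC2) is the histone methyltransferase that places methyl groups on lysine 27 of histone H3 and so helps to keep developmental genes silent. EZH2 or its close relative EZH1 is the catalytic subunit, SUZ12 and EED complete the core, and RBBP4 and RBBP7 are histone-binding subunits shared with other chromatin complexes. PHF1, MTF2 and PHF19 are the Polycomb-like accessory proteins that help to bring the core to chromatin, while JARID2 is the accessory protein of the alternative form of the complex. JARID2 belongs by sequence to the Jumonji family of histone demethylases but has no demethylase activity of its own.

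The 10 genes JARID2, EZH1, EZH2, SUZ12, EED, PHF1, PHF19, MTF2, RBBP4 and RBBP7 were followed, out of 18665 genes with a probe on the array. JARID2 was chosen by its fall with CDDP in siCtl cells, the strongest of all genes in that contrast. The other genes, and the further gene lists used below, were chosen with earlier results of these data known. The 10 genes are read by 17 probes, each assigned to the gene by its symbol in the probe table. Of the 10 genes, 9 were measured above the signal floor used here and form part of the 9808 genes tested, and their brightest probes were above that floor on all 12 arrays.

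The cells were U2OS, an established human osteosarcoma line with functional p53. They received siRNA against the co-repressor NCoR (siNCOR cells), siRNA against the related co-repressor SMRT (siSMRT cells) or a scramble control (siCtl cells), where each co-repressor siRNA was a mix of independent duplexes. After 2 days one set of each was given 100 µM cisplatin (CDDP), a platinum drug that crosslinks DNA, for 6 h, and the other was left without the drug (no-treatment in the labels, untreated here). The 6 groups held 2 biological replicates each, all in 1 cell line and after transfection, and the comparisons ask how the drug and the 2 co-repressors affect these genes.

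Array medians of the raw intensity lay between 54 and 65.3, and 27% to 31.4% of probes gave a signal over 100. Replicates correlated at 0.9941 to 0.9948 on the log2 scale. Of the mesenchymal markers, VIM, COL1A1, SPARC, CD44 and THY1 were above the floor on all 12 arrays, RUNX2 on 4, and COL1A2 and FN1 on 0. Of the markers of other cell types, CDH1, KRT5, PTPRC, ALB and GFAP were above it on 0 arrays, PECAM1 on 8, and the epithelial gene EPCAM (375 to 858) and the T-cell gene CD3D (110 to 259) on all 12. The knock-down itself was not analysed here. A lower signal in such an assay cannot tell fewer transcripts per cell from fewer cells that carry them.

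JARID2 is transcribed from 276 kb of chromosome 6, SUZ12 from 64 kb of chromosome 17 and PHF1 from 6.03 kb of chromosome 6 (RefSeq, GRCh38.p14). Their promoters are shown because JARID2 and SUZ12 moved down together with CDDP while PHF1 moved up. Each is the stretch of 250 bases before the annotated start, at chr6:15245819-15246068 (JARID2), chr17:31936757-31937006 (SUZ12) and chr6:33410764-33411013 (PHF1), all on the plus strand. Capitals mark the GC box GGGCGG and the CCAAT box, each on either strand.
JARID2: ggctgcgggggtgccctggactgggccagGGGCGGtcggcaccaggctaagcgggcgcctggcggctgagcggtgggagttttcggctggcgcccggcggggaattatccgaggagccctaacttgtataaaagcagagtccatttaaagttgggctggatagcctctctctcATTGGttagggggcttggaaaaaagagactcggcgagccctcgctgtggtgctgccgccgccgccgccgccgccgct
SUZ12: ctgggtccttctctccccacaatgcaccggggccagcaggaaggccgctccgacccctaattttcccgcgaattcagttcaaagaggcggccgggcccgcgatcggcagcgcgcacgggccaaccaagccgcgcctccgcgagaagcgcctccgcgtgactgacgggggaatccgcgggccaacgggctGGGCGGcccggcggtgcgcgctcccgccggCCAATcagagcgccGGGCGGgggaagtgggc
PHF1: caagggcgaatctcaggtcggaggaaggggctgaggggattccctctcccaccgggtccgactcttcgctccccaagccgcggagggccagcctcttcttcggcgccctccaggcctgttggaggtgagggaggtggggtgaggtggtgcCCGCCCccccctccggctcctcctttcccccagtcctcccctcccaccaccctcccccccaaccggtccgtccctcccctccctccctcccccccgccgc

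The JARID2 window holds 1 GC box and 1 CCAAT box, the SUZ12 window 2 and 1, and the PHF1 window 1 and 0. Over all 10 genes the GC box was found in 8 windows and the CCAAT box in 7, against 42.6% and 32% of 35114 RefSeq promoter windows of the same length. The AP-1 motif TGANTCA, found in 6.57% of all windows, and the E2F motif TTTGGCGC or TTTCGCGC, found in 0.968%, were in 0 of the 10. No overlap between motifs was removed, and both strands were read for each. The GC content ran from 51.2% in EED to 79.6% in RBBP7, against a median of 58.0% over all windows.

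JARID2 was lower with CDDP under each siRNA. In siNCOR cells its log2 normalized intensity was 6.38 and 6.32 with CDDP, against 9.24 and 9.15 untreated. In siSMRT cells it was 7.05 and 6.80 with CDDP, against 9.26 and 9.17 untreated. In siCtl cells, the arrays on which JARID2 was chosen, it was 6.53 and 6.47 with CDDP, against 9.45 and 9.35 untreated. All 6 CDDP arrays lay below all 6 untreated ones, the nearest values being 7.05 and 9.15, and the replicates of a group lay far closer together than that.

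**Figure D1:**
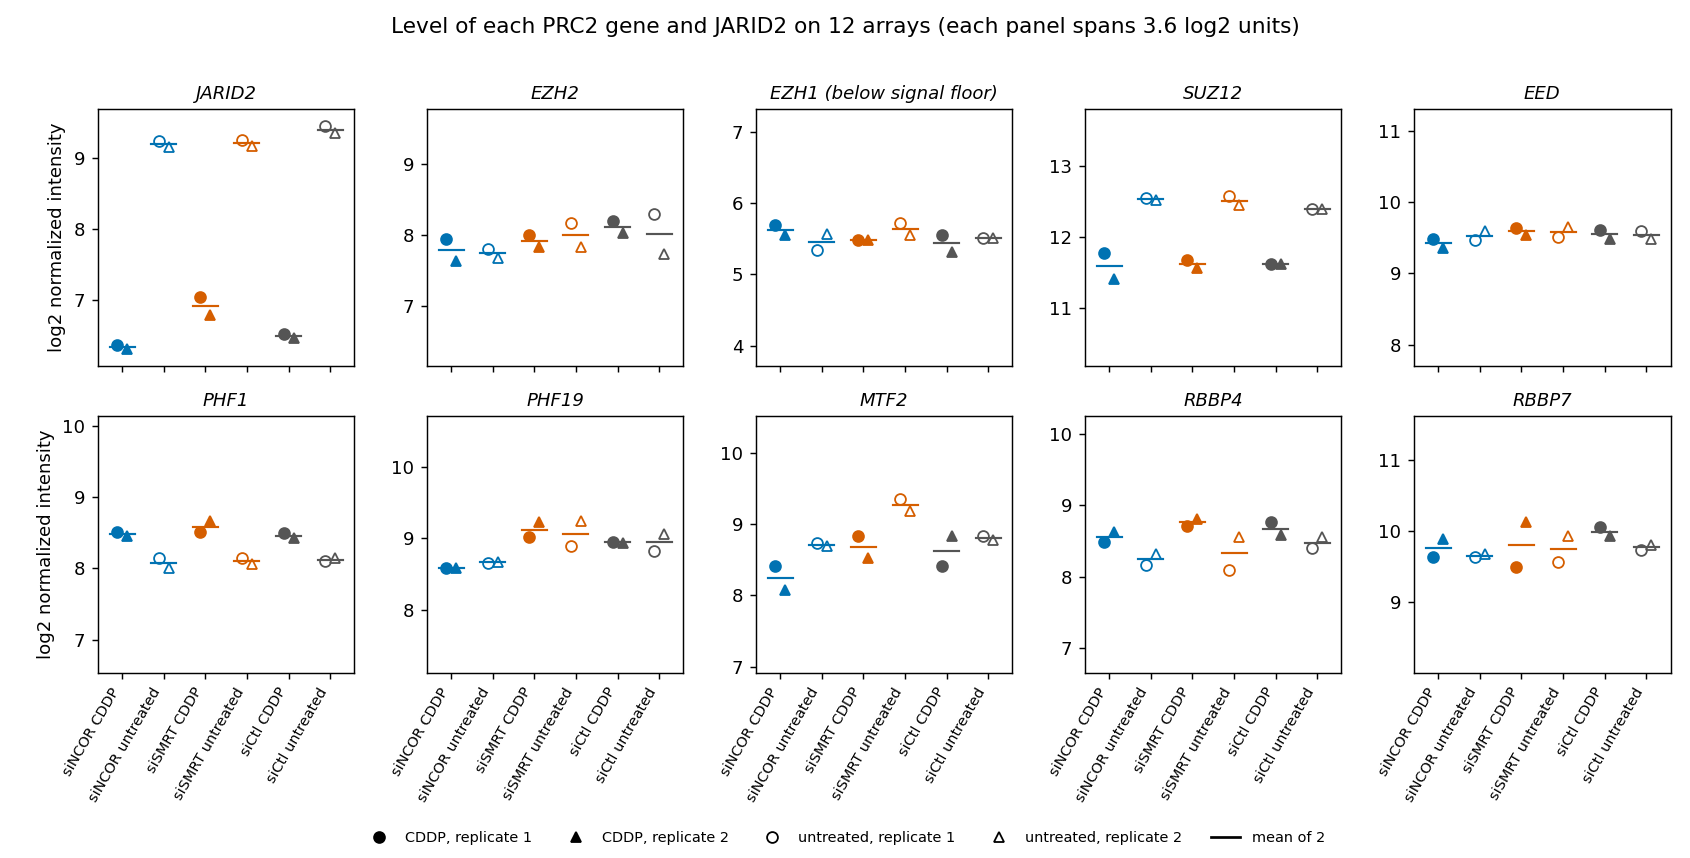
The log2 normalized intensity of each gene on the 12 arrays, 1 panel per gene, with CDDP (filled) left of untreated (open) for siNCOR, siSMRT and siCtl cells. Circles are replicate 1, triangles replicate 2 and short lines the mean of the 2. JARID2 sits between 6.32 and 7.05 in CDDP arrays and between 9.15 and 9.45 in untreated arrays, SUZ12 splits the same way by less, and EZH1 stays under the signal floor.

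The fall of JARID2 was tested in the siNCOR and siSMRT arrays, which had no part in its choice. In siNCOR cells the log2 difference between CDDP and untreated cells was -2.84 (SE 0.102, 95% interval -3.06 to -2.62), or 7.17-fold lower, with an adjusted p of 1.78e-08 (limma, Benjamini-Hochberg over 9808 genes). The replicate pairs gave -2.86 and -2.83. In siSMRT cells it was -2.29 (SE 0.102, 95% interval -2.51 to -2.07), or 4.89-fold lower, with an adjusted p of 1.1e-07 by the same limma fit and with both pairs lower, at -2.21 and -2.37. JARID2 stood first from the bottom of 9808 genes in siNCOR cells and at position 7 in siSMRT cells.

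In siCtl cells the log2 difference was -2.90 (SE 0.102), or 7.46-fold lower, which is the value that selected the gene and carries no test. ZMIZ1, just outside the rule, had the same log2 difference of -2.90 to 2 decimals (SE 0.167), and ATXN1 came next at -2.75 (SE 0.148). On the scale of the quantile-normalized signal before background correction, JARID2 read 103 to 155 on the CDDP arrays and 591 to 721 on the untreated arrays. The signal floor is 100 on that scale, so the CDDP readings lay close to it, and the size of the fall moved with the background correction while its direction did not. Its fitted value in siCtl cells was -2.51 with a normexp offset of 50, -2.62 with no correction and -3.07 with median scaling of the arrays.

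SUZ12, the core subunit that holds the catalytic module together, also fell with CDDP. In siNCOR cells the log2 intensity was 11.77 and 11.41 with CDDP, against 12.54 and 12.52 untreated. In siSMRT cells it was 11.67 and 11.56 with CDDP, against 12.57 and 12.44 untreated. In siCtl cells it was 11.61 and 11.62 with CDDP, against 12.39 and 12.39 untreated. The CDDP and untreated arrays did not overlap under any siRNA. The log2 difference was -0.94 in siNCOR cells (SE 0.113, 1.92-fold lower, limma adjusted p = 5.61e-05) and -0.89 in siSMRT cells (SE 0.113, 1.85-fold lower, limma adjusted p = 8.02e-05), and its fitted value in siCtl cells was -0.77. SUZ12 is read by 1 probe, and a related pseudogene exists, so transcripts of that copy cannot be told apart here.

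The other subunits of the core gave no call. EZH2, the catalytic subunit of dividing cells, lay between 7.64 and 7.95 in siNCOR cells with CDDP, against 7.68 and 7.81 untreated, and the 2 sets overlapped. Its log2 difference was 0.05 in siNCOR cells (95% interval -0.33 to 0.44, limma adjusted p = 0.831) and -0.08 in siSMRT cells (95% interval -0.47 to 0.31, limma adjusted p = 0.738). The 2 other EZH2 probes, fitted as features of their own, gave -0.36 and -0.19 in siNCOR cells and -0.42 and -0.05 in siSMRT cells, with no call. The intervals for EZH2 still allow changes of about the size seen for PHF1.

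EED, which binds methylated histone H3, lay between 9.36 and 9.65 over the siNCOR and siSMRT arrays, and CDDP and untreated values overlapped. Its log2 difference was -0.11 in siNCOR cells (95% interval -0.33 to 0.11) and 0.02 in siSMRT cells (95% interval -0.20 to 0.23). The only probe of EZH1, the catalytic subunit that prevails in non-dividing tissue, read 62.5 to 75.5 on the uncorrected scale and was above the floor on 0 of 12 arrays. Fitted without a floor over 18665 genes it gave 0.18 in siNCOR cells (limma adjusted p = 0.389) and -0.15 in siSMRT cells (limma adjusted p = 0.475).

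**Figure D2:**
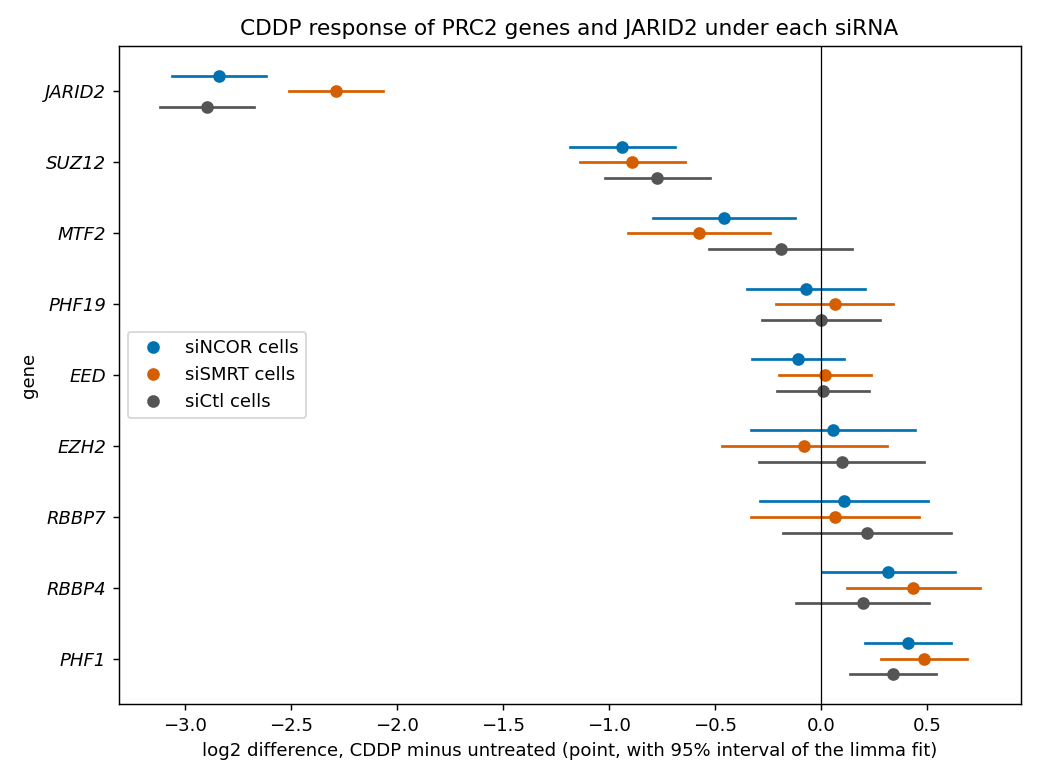
The log2 difference between CDDP and untreated cells for the 9 genes above the floor (points, with 95% intervals of the limma fit) in siNCOR, siSMRT and siCtl cells, from top to bottom within each gene. JARID2 lies near -2.84, -2.29 and -2.90, SUZ12 near -0.94, -0.89 and -0.77, and the intervals of PHF19, EED, EZH2 and RBBP7 cross 0 under each siRNA.

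The 3 Polycomb-like genes split. MTF2 had a log2 intensity of 8.42 and 8.08 in siNCOR cells with CDDP, against 8.73 and 8.70 untreated, and of 8.84 and 8.53 in siSMRT cells with CDDP, against 9.35 and 9.19 untreated. CDDP and untreated arrays did not overlap in either. The log2 difference was -0.46 in siNCOR cells (SE 0.154, limma adjusted p = 0.0316) and -0.58 in siSMRT cells (SE 0.154, limma adjusted p = 0.00995). In siCtl cells the pairs went in opposite directions, at -0.43 and 0.05, with 8.41 and 8.83 with CDDP, against 8.84 and 8.78 untreated. The call in siNCOR cells was lost without siNCOR CDDP replicate 2, where the difference was -0.29 (limma adjusted p = 0.238), without either untreated siNCOR array (-0.44 and -0.48, limma adjusted p = 0.114 and 0.0902), and with no floor (-0.46, limma adjusted p = 0.0585). The call in siSMRT cells was lost without siSMRT CDDP replicate 2 (-0.42, limma adjusted p = 0.0995) and without untreated siSMRT replicate 1 (-0.50, limma adjusted p = 0.0765).

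PHF1 rose. Its log2 intensity was 8.51 and 8.45 in siNCOR cells with CDDP, against 8.14 and 8.01 untreated, and 8.51 and 8.66 in siSMRT cells with CDDP, against 8.14 and 8.06 untreated. In siCtl cells it was 8.50 and 8.42 with CDDP, against 8.10 and 8.14 untreated, so that all 6 CDDP arrays lay above all 6 untreated ones. The log2 difference was 0.41 in siNCOR cells (SE 0.0935, 1.33-fold higher, limma adjusted p = 0.00445) and 0.48 in siSMRT cells (SE 0.0935, 1.40-fold higher, limma adjusted p = 0.00151), and its fitted value in siCtl cells was 0.34. With median scaling of the arrays the difference in siNCOR cells was 0.19 (limma adjusted p = 0.36), where the median of all genes shifted to -0.11.

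In siNCOR cells 2 PHF1 probes rose, by 0.41 and 0.42 on the log2 scale, and in siSMRT cells by 0.48 and 0.56. The dimmest probe gave 0.44 in siNCOR cells and 0.25 in siSMRT cells (limma adjusted p = 0.0717 in siSMRT cells). It was above the floor on 5 of 12 arrays, all of them with CDDP, and read 80.5 to 99.6 on untreated arrays. That probe passed the floor only through CDDP arrays, so its rise adds no support of its own. PHF19 was at 8.59 and 8.59 in siNCOR cells with CDDP, against 8.66 and 8.67 untreated, and at 9.02 and 9.23 in siSMRT cells with CDDP, against 8.89 and 9.24 untreated. Its log2 difference was -0.07 (95% interval -0.35 to 0.20) in siNCOR cells and 0.06 (95% interval -0.21 to 0.34) in siSMRT cells, with no call for any of its 3 probes.

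RBBP4 and RBBP7 are histone chaperones that PRC2 shares with deacetylase complexes. RBBP4 had a log2 intensity of 8.71 and 8.81 in siSMRT cells with CDDP, against 8.09 and 8.56 untreated, a difference of 0.43 (SE 0.144, limma adjusted p = 0.0291). The 2 pairs gave 0.62 and 0.24. The call was lost without either siSMRT CDDP array (0.48 and 0.38, limma adjusted p = 0.0636 and 0.136) and without untreated siSMRT replicate 1 (0.20, limma adjusted p = 0.305). It was also lost without a floor (limma adjusted p = 0.0562) and with median scaling (0.38, limma adjusted p = 0.0526). A second RBBP4 probe gave 0.15 (limma adjusted p = 0.265). Whether related copies add to the RBBP4 signal was not checked.

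In siNCOR cells RBBP4 was at 8.48 and 8.63 with CDDP, against 8.16 and 8.32 untreated, with a difference of 0.32 (SE 0.144) that missed the threshold (limma adjusted p = 0.0979) and passed it with the replicate number as a block (limma adjusted p = 0.0465). It passed as well without either untreated siSMRT array (limma adjusted p = 0.0432). RBBP7 differed by 0.11 in siNCOR cells (95% interval -0.29 to 0.50) and by 0.07 in siSMRT cells (95% interval -0.33 to 0.46). Its siSMRT arrays with CDDP, at 9.49 and 10.13, spanned both untreated values of 9.56 and 9.93.

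Counted over the 9 genes above the floor, CDDP lowered 3 (JARID2, SUZ12 and MTF2) and raised 1 (PHF1) in siNCOR cells, where 21.2% of all genes tested were lower and 19.6% higher. In siSMRT cells it lowered the same 3 and raised 2 (PHF1 and RBBP4), where 21.6% of all genes were lower and 21.3% higher. Shares of this order in so few genes do not set the family apart from the array. Its median log2 difference was -0.07 in siNCOR cells and 0.02 in siSMRT cells, against 0.03 for all genes in both. Among all calls in siNCOR cells 48% were higher, against 18.3% with median scaling and 41.6% in the authors' processed values. In siSMRT cells the figures were 49.6%, 48.1% and 44%.

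The 3 lowered genes lie in long transcription units and PHF1 in a short one. JARID2 is longer than 96.3% of the 9801 genes with a length. With the genes in 10 bins of equal number by length, SUZ12 (64 kb) and MTF2 (59.8 kb) fall in bin 8. Of the genes in the longest bin, 58.1% were lower in siNCOR cells and 2.24% higher, and in bin 8 the shares were 35.9% and 5.31%. In bin 2, which holds PHF1, 6.73% were lower and 36.1% higher. EZH2 (76.9 kb) is in the same bin as SUZ12 and MTF2 and gave no call. The median log2 difference of the longest bin was -0.45 in siNCOR cells and -0.38 in siSMRT cells, against -2.84 and -2.29 for JARID2. The part of gene length in these results was not tested.

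**Figure D3:**
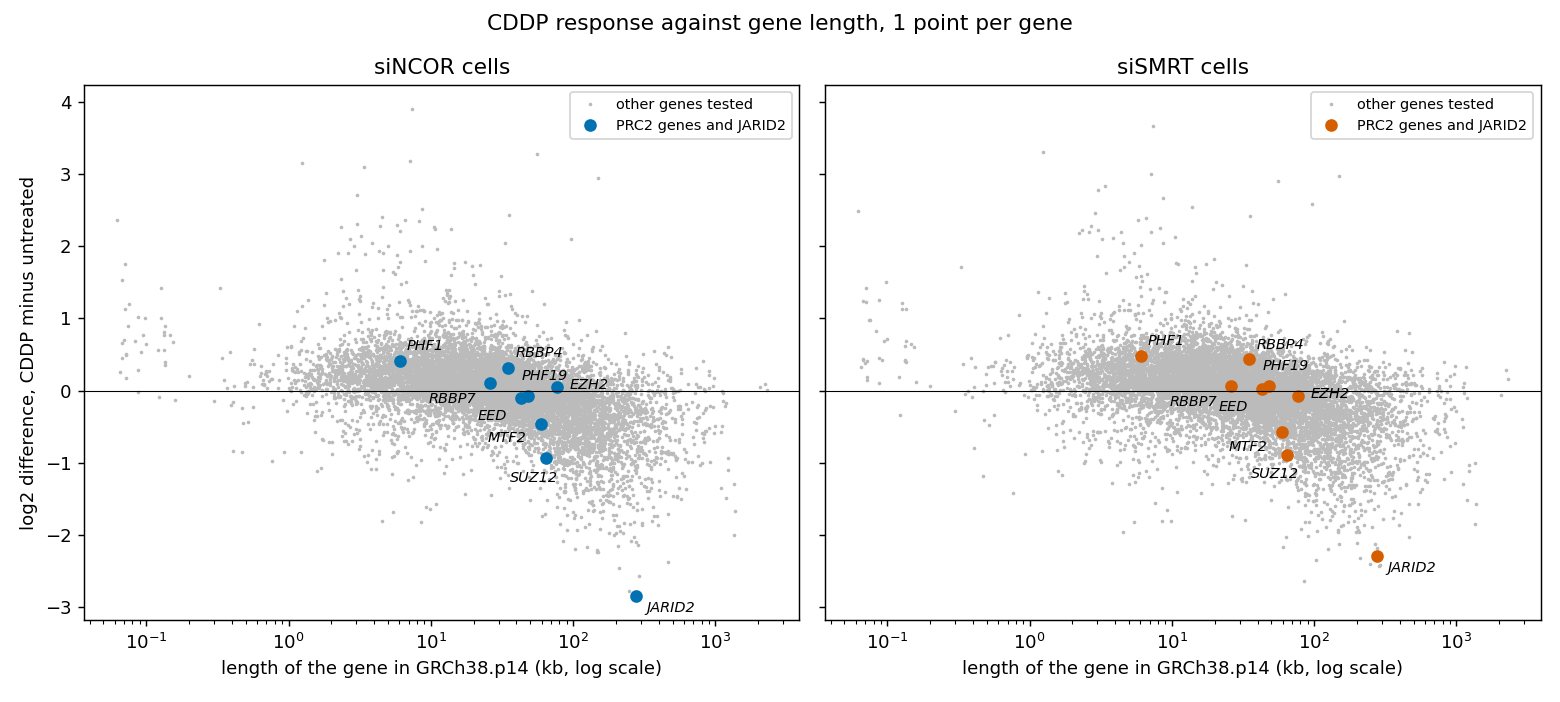
The log2 difference between CDDP and untreated cells (vertical axis) against the length of the gene in GRCh38.p14 (horizontal axis, kb, log scale) in siNCOR and siSMRT cells, with every tested gene in grey and the 9 genes of the family in colour. JARID2, at 276 kb, is the lowest point of all in siNCOR cells at -2.84, while PHF1, at 6.03 kb, lies at 0.41.

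The CDDP responses were compared between siRNA groups. For JARID2 the log2 difference in siSMRT cells minus that in siNCOR cells was 0.55 (95% interval 0.24 to 0.87), with an unadjusted p of 0.00236 in the limma fit that did not survive adjustment over all genes (adjusted p = 1). No gene of the family was called in this contrast, nor was any of the 9808 genes (0%), of which 336 had an unadjusted p below 0.05. Against siCtl cells the JARID2 response differed by 0.61 in siSMRT cells and by 0.06 in siNCOR cells, which is a description because siCtl arrays chose the gene.

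The other genes above the floor, 8 in number, gave 0 calls in either contrast with siCtl cells by limma. Of all genes 0.0102% were called in the siSMRT contrast and 0% in the siNCOR contrast, with 897 and 471 genes at an unadjusted p below 0.05 and 0 of these 8 among them in each. With replicate number blocked, the counts over all genes were 1 and 0. For MTF2 the interval of the siSMRT against siCtl difference ran from -0.86 to 0.09, and for EED from -0.30 to 0.31.

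The levels themselves were then compared between siSMRT and siNCOR cells, which uses no siCtl array. With CDDP, JARID2 stood at 7.05 and 6.80 in siSMRT cells, against 6.38 and 6.32 in siNCOR cells. The difference of 0.58 (SE 0.102) had a limma adjusted p of 0.00269 and the same sign in both pairs. In this contrast 16.2% of all genes were called in either direction, and 2 of the 9 genes were, JARID2 and PHF19, both higher in siSMRT cells. Untreated, JARID2 differed by 0.02 (95% interval -0.20 to 0.24).

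PHF19 was higher in siSMRT than in siNCOR cells under both conditions. With CDDP it was at 9.02 and 9.23 in siSMRT cells, against 8.59 and 8.59 in siNCOR cells, a difference of 0.53 (SE 0.127, limma adjusted p = 0.014). Untreated it was at 8.89 and 9.24, against 8.66 and 8.67, a difference of 0.40 (SE 0.127, limma adjusted p = 0.0471). In a fit of single probes all 3 PHF19 probes were called in both conditions, by 0.53, 0.52 and 0.62 with CDDP and by 0.40, 0.54 and 0.54 untreated. The call with CDDP was lost without either siNCOR CDDP array (0.53 each, limma adjusted p = 0.0618 and 0.0527) and without siSMRT CDDP replicate 2 (0.42, limma adjusted p = 0.116). The untreated call was lost in 12 of 21 alternatives, over which the value ran from 0.22 to 0.58 and the limma adjusted p up to 0.333. It was lost without any 1 array other than untreated siSMRT replicate 1 and the untreated siCtl arrays, and the lowest value came without untreated siSMRT replicate 2.

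MTF2 was higher in siSMRT than in siNCOR cells when untreated, at 9.35 and 9.19 against 8.73 and 8.70. The difference was 0.56 (SE 0.154, limma adjusted p = 0.0263), in a contrast where 18.9% of all genes were called and 2 of these 9, MTF2 and PHF19. The MTF2 call was lost without any one of the 4 arrays compared, where the difference was 0.47 to 0.63 and the limma adjusted p 0.0607 to 0.153. It was also lost with median scaling (0.45, limma adjusted p = 0.124) and without a floor (limma adjusted p = 0.0509). With CDDP the difference was 0.44 (SE 0.154, limma adjusted p = 0.0754), which passed with the replicate block (limma adjusted p = 0.0449) and without either siCtl CDDP array (limma adjusted p = 0.0475).

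**Figure D4:**
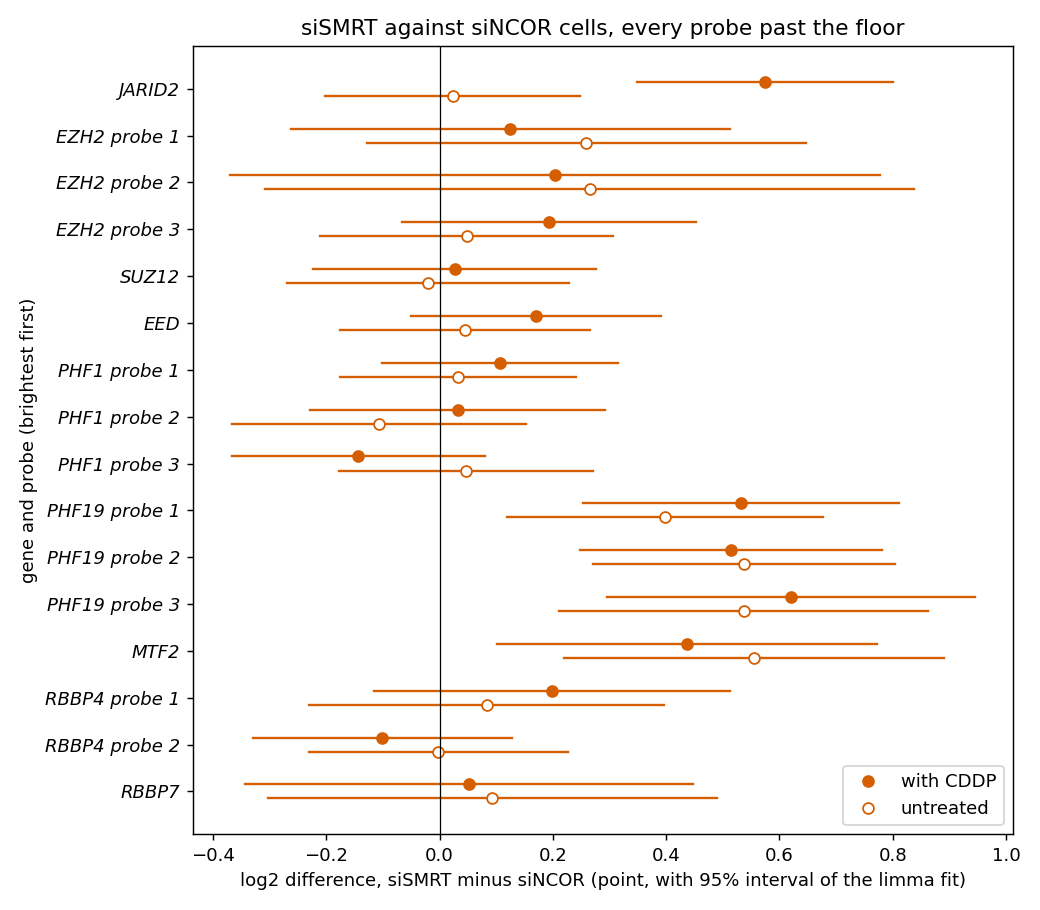
The log2 difference between siSMRT and siNCOR cells for every probe of the family past the floor, with CDDP (filled) above untreated (open), with 95% intervals of a limma fit of single probes. All 3 PHF19 probes lie right of 0 in both conditions, between 0.40 and 0.62, and JARID2 lies at 0.58 with CDDP and 0.02 untreated.

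Against siCtl cells, 0 of the 8 genes open to a test were called under any of the 4 comparisons by limma. All genes were called at 15.8% (siSMRT) and 5.26% (siNCOR) when untreated, and at 17.3% and 6.58% with CDDP. At an unadjusted p below 0.05 stood 1 of the 8 in each untreated comparison (MTF2 in siSMRT cells and PHF19 in siNCOR cells), 0 in siSMRT cells with CDDP, and 2 in siNCOR cells with CDDP (MTF2 and PHF19). Of all 9808 genes, 2940 (siSMRT) and 1927 (siNCOR) stood there untreated, and 3192 and 2169 with CDDP, so these counts are near or below the share over all genes. With the replicate block, MTF2 was higher in untreated siSMRT than siCtl cells (0.46, limma adjusted p = 0.0364) and PHF19 lower in siNCOR than siCtl cells with CDDP (-0.35, limma adjusted p = 0.0434). That fit called 2318 of all 9808 genes in the untreated siSMRT comparison and 1252 in the siNCOR comparison with CDDP. The MTF2 difference, whose limma adjusted p was 0.0645 without the block, also passed without any 1 of the siNCOR CDDP (0.0489) or siCtl CDDP arrays (0.04). In the fit of single probes 1 of the dimmer PHF19 probes was higher in siSMRT than in siCtl cells both with CDDP (0.52, limma adjusted p = 0.0146) and untreated (0.55, limma adjusted p = 0.0111), and the other was so with CDDP (0.47, limma adjusted p = 0.0483). The brightest probe gave 0.18 with CDDP and 0.11 untreated, with no call, so the probes disagree on that comparison. JARID2 differed from siCtl cells by 0.42 in siSMRT cells with CDDP and by -0.19 untreated, and by -0.15 and -0.21 in siNCOR cells, given as a description.

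Across the 12 arrays, which share the cell line and fall into a CDDP and an untreated set, the levels of SUZ12 followed those of JARID2 with a Pearson r of 0.969, and those of PHF1 ran against it with an r of -0.923. For MTF2 r was 0.665, for RBBP4 -0.684, and for EZH2 -0.009. The genes most like JARID2 over the 12 arrays were MLLT10, ZCCHC7, ZMYND8, CWC27 and PACSIN2, with r between 0.993 and 0.995. Their log2 differences in siNCOR cells ran from -2.46 (MLLT10) to -0.67 (CWC27), and their lengths from 145 to 250 kb. The genes most opposed to it were BRD2, SLC35A2, PMAIP1, GRIN2C and PELI1, with r between -0.992 and -0.988 and lengths from 4.31 to 51.8 kb. These are descriptions, since any gene with a clear difference between the CDDP and untreated sets gives a high r.

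Of 5 other listed PRC2 partners, 4 were on the array and 3 were tested. These were AEBP2, which accompanies JARID2 in the same form of the complex, LCOR, whose locus encodes a further accessory protein, and EZHIP, an inhibitor of the complex. In siNCOR cells AEBP2 fell by 1.38 (SE 0.135, limma adjusted p = 1.11e-05) and LCOR by 0.50, while EZHIP rose by 0.54. In siSMRT cells AEBP2 fell by 1.05 (limma adjusted p = 8.58e-05) and LCOR by 0.34, and EZHIP rose by 0.51. Thus 2 of the 3 were lower and 1 higher under both siRNAs, against 21.2% lower and 19.6% higher among all genes in siNCOR cells and 21.6% and 21.3% in siSMRT cells. The LCOR probe could not be placed within its locus, so whether it reads the accessory protein was not checked. C10orf12, a separate entry for that locus outside this list, had log2 differences of -0.67 in siNCOR and -0.91 in siSMRT cells.

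PRC1 is the partner complex that reads the PRC2 mark and ubiquitinates histone H2A. Of its 25 listed genes 20 were tested, and 8 were lower, 1 higher and 11 not called in siNCOR cells, with 8, 2 and 10 in siSMRT cells. Over all genes 21.2% were lower and 19.6% higher in siNCOR cells, and 21.6% and 21.3% in siSMRT cells. The median log2 difference was -0.25 in siNCOR and -0.30 in siSMRT cells, against 0.03 for all genes. AUTS2, a subunit of a variant PRC1, fell by 1.49 in siNCOR cells (limma adjusted p = 2.61e-05) and CBX7, which binds the methyl mark, by 0.72 (limma adjusted p = 0.000228). SCML2 fell by 0.66 and CBX6 by 0.44.

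A further list of 6 genes covers the removal of these marks, of which 4 were on the array and 3 were tested. KDM6A, a demethylase for lysine 27 of histone H3, was lower by 1.46 in siNCOR cells (limma adjusted p = 8.23e-06), with a log2 difference of -1.53 in siSMRT cells (limma adjusted p = 5.94e-06). ASXL2, a partner of the enzyme that removes ubiquitin from H2A, had a log2 difference of -1.002 in siNCOR cells and -0.85 in siSMRT cells, and its relative ASXL1 had -0.85 and -0.73. All 3 were lower under both siRNAs, where 21.2% (siNCOR) and 21.6% (siSMRT) of all genes were. KDM6A spans 239592 bases and lies in the longest bin by length, where 58.1% (siNCOR) and 53.3% (siSMRT) of genes were lower. The part of gene length in this and the other lists was not tested.

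HOX genes are classical targets of PRC2. Of 39 listed, 16 were above the floor, and in siNCOR cells 1 was lower, 5 were higher and 10 were not called, with 1, 4 and 11 in siSMRT cells. Over all genes 21.2% were lower and 19.6% higher in siNCOR cells, and 21.6% and 21.3% in siSMRT cells. Counts this small do not set the 16 HOX genes apart from the array. HOXD1 rose by 1.91 in siNCOR cells (limma adjusted p = 4.55e-07) and by 2.18 in siSMRT cells (limma adjusted p = 2.02e-07). HOXB8, HOXC13 and HOXC9 rose by 0.72, 0.66 and 0.58 in siNCOR cells. In siSMRT cells HOXC13 and HOXC9 rose by 0.56 and 0.37, and HOXB8 gave 0.46 (limma adjusted p = 0.0562). The median over the 16 was 0.12 under both siRNAs, against 0.03 for all genes. A gene could enter the 16 through its CDDP arrays alone, and whether the HOX genes that rose did so was not checked. The counts and p-values of the HOX genes that rose are therefore a description and lend no support of their own. Of the 6 mesenchymal markers tested, CDDP lowered RUNX2, by 1.21, and raised SPARC, by 0.32, in siNCOR cells, and in siSMRT cells it lowered RUNX2 and raised SPARC and THY1. RUNX2 read 51.4 to 125 and was above the floor on only 4 of 12 arrays. It could pass the floor through untreated arrays alone, which was not checked, so its fall is given as a description. Of the 3 markers of other cell types tested, EPCAM rose by 0.46 and CD3D by 0.54 in siNCOR cells. In siSMRT cells only 1 of the 3 was called higher. The part of these markers in the results above was not tested.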

How the data were processed

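The deposited values were intensity readings of 48803 probes on each of 12 Illumina arrays, exported by the authors from BeadStudio (version not given in the sources used here) with no background subtraction and no scaling between arrays. A second deposited table of intensity values, normalized by the authors with Corgon and multi-loess, served as an alternative. The signals were background-corrected (normexp, offset 16), quantile-normalized, put on the log2 scale and fitted in limma 3.58.1 (R 4.3.3) with 1 coefficient per group. All 12 arrays shared 1 estimate of the spread per gene. A probe was kept if its quantile-normalized, uncorrected signal was above 100 in both arrays of at least 1 group, and the brightest kept probe stood for its gene. Of the probes, 27578 had 1 gene symbol, 13 several and 21212 none. P-values were adjusted by Benjamini-Hochberg over 9808 genes, with a threshold of 0.05. The fit was tested on simulated data with independent noise on each array. That setting leaves out the shared deviations of same-numbered replicates described below, so it does not cover their effect on the calls. Array number, 2 per group, limits the precision.

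The members and gene lists were chosen with earlier results of these data known. Named genes are all members with every probe, up to 4 per list with the smallest p in the siNCOR CDDP contrast, and the 5 genes most and least like JARID2. No gene was tested in the siCtl CDDP contrast, and JARID2 in no contrast with siCtl arrays. Same-numbered replicates deviated together in 15 of 15 pairs of groups (correlations of 0.2 to 0.42), so a fit with the replicate number as a block is given where it changed a call.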

Additional observations from a re-analysis of the deposited data

How the results depend on the processing

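The fall of JARID2 in siNCOR and siSMRT cells kept its direction and its call in 21 of 21 alternatives, at -3.02 to -2.42 and -2.42 to -2.01, as did that of SUZ12, at -1.11 to -0.76 and -0.96 to -0.67, and the higher JARID2 level in siSMRT than siNCOR cells with CDDP, at 0.43 to 0.70. PHF1 kept its call in siSMRT cells in 21 of 21 and in siNCOR cells in 20. MTF2 kept its call in siNCOR cells in 17 and in siSMRT cells in 19, and in the others the number of genes lowered was 2 in place of 3. No direction turned. In siCtl cells the JARID2 difference of -2.90 became -2.51 (offset 50), -2.62 (no background correction), -3.07 (median scaling) and -2.65 (authors' processed values), and -2.95 to -2.85 with 1 array left out.

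The number of genes raised by CDDP in siNCOR cells, 1, became 0 with median scaling and 2 with the replicate block, and was 1 to 2 with 1 array left out. In siSMRT cells the 2 became 1 with median scaling and with no filter on dim probes, and 1 to 2 with 1 array left out. Between untreated siSMRT and siCtl cells the 0 became 1 with offset 50, with no background correction, with only the arrays compared and with the replicate block, and 0 to 1 with 1 array left out. Between untreated siSMRT and siNCOR cells the 2 became 0 with median scaling and with no filter, 1 with only the arrays compared, and 0 to 2 with 1 array left out. Between siNCOR and siCtl cells with CDDP the 0 became 1 with the replicate block. Between siSMRT and siNCOR cells with CDDP the 2 became 1 to 3 with 1 array left out, 3 also with the replicate block. The replicate block, which pairs the arrays, gave MTF2 (adjusted p = 0.0449), RBBP4 (adjusted p = 0.0465), PHF19 (adjusted p = 0.0434) and MTF2 against siCtl (adjusted p = 0.0364) a call they did not have in the fit without it. Over all 9808 genes the replicate block also gave more calls. Between siSMRT and siNCOR cells with CDDP there were 2253, against 1588 without the block. Between siNCOR and siCtl cells with CDDP there were 1252 against 645, and between untreated siSMRT and siCtl cells 2318 against 1550. For CDDP in siNCOR cells there were 4741, against 2075 lower and 1918 higher without the block. With 1 array left out, the lone array of a group was assumed to vary like the others. The cause was not tested. JARID2 with CDDP and the dimmest PHF1 probe lay near the floor, and EZH1 below it.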

Other observations

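RBBP4 and RBBP7 also serve in deacetylase and chromatin assembly complexes. Of 20 listed genes of those complexes 19 were tested, and CDDP lowered 6 and raised 1 in siNCOR cells and lowered 7 and raised 3 in siSMRT cells. Over all genes 21.2% were lower and 19.6% higher in siNCOR cells, and 21.6% and 21.3% in siSMRT cells. SIN3A, the scaffold of a deacetylase complex, fell by 1.63 in siNCOR cells (limma adjusted p = 1.57e-05), with a log2 difference of -1.82 in siSMRT cells. Its partner SAP18 rose by 1.10 (limma adjusted p = 7.63e-06) and by 1.36. GATAD2B and MTA3, subunits of the NuRD complex, fell by 0.83 and 0.63 in siNCOR cells and by 0.97 and 0.55 in siSMRT cells. The median log2 difference of the list was -0.12 in siNCOR and -0.08 in siSMRT cells, against 0.03 for all genes.

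KDM5B, a demethylase for lysine 4 of histone H3 and the only gene of its 3-member list that was tested, fell by 0.51 under both siRNAs (limma adjusted p = 0.00272 in siNCOR and 0.00252 in siSMRT cells).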
